A study of Mus musculus with 6 samples.

Results

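Intermediate filament genes were examined in MC3T3-E1 cells with and without knockdown of *Hdac4*. The set holds 10 of the 53801 gene identifiers in the count tables: *Nefl*, *Nefm* and *Nefh*, *Ina* and *Prph*, *Nes* and *Synm*, and *Vim*, *Des* and *Gfap*. The genes were chosen by name with the read counts and log2 fold changes of this same comparison known, among them those of *Nefl* and *Nes*. The difference between the groups is therefore given for these genes as a description, without p-values.

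MC3T3-E1 is a mouse pre-osteoblast line. RNA was sequenced from 3 control and 3 Hdac4-knockdown libraries, and the reads on each gene were counted. All 6 came from MC3T3-E1 cells that carried a pGMLV-HU6-MCS-CMV-ZsGreen1-PGK-Puro lentivirus and had been selected in 5 μg/ml puromycin for 7 days, expressing a scrambled non-silencing RNA (control) or an shRNA against *Hdac4* (knockdown). The labels do not give the number of the shRNA. The paper names Hdac4-shRNA3, so that a single hairpin stands behind the knockdown group. The cells were stably infected. The labels give 3 independent RNA samples per group, and the study calls them biological replicates. The labels do not say that the cells of a group were infected separately for each sample, and the errors below cover the spread between these samples only. In such bulk RNA, fewer cells expressing a gene and less RNA per cell cannot be told apart.

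Intermediate filaments are ropes of coiled-coil proteins that give cells mechanical strength. Vimentin, encoded by *Vim*, is the filament protein of most mesenchymal cells, osteoblasts included, and desmin (*Des*) is that of muscle. GFAP is the filament protein of astrocytes. Neurons build theirs from the light, medium and heavy neurofilament proteins (*Nefl*, *Nefm*, *Nefh*) with α-internexin (*Ina*) or peripherin (*Prph*). Nestin (*Nes*), known from neural stem cells and muscle precursors, and synemin (*Synm*) are large proteins that join filaments built by vimentin or desmin rather than forming filaments alone.

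The proteins share a central rod whose last turn is the most conserved stretch of the family. The 30 coding bases for that turn are shown for 5 of the genes that the results turn on, because they show how alike and how distinct the counted transcripts were. They were read from GENCODE M21 transcripts on GRCm38, 5′ to 3′ along the coding strand. Capitals mark the 14 bases that are identical in all 10 genes.
Nefl: GAgaTtGCagCtTACaGaaaacTctTgGAa
Nefm: GAgaTcGCcgCgTACaGgaaacTccTaGAg
Nes: GAagTgGCtaCaTACaGgactcTgcTgGAg
Synm: GAggTaGCcaCcTACaGggcctTgtTgGAa
Des: GAgaTcGCcaCcTACcGgaagcTacTgGAg

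The *Des* stretch lies within exon 6 of Des-201 (chr1:75363648-75363677, plus strand). Those of *Nefl*, *Nefm*, *Nes* and *Synm* each cross the junction of exons 2 and 3. Of the 30 bases, *Nefm* shares 24 with *Des* and 23 with *Nefl*, whereas *Nefl* shares 20 with *Des*, 19 with *Synm* and 18 with *Nes*. Even so, the longest run of identical bases between transcripts of different members on the same strand was 36 bases, between *Prph* and *Des*. Between *Nefl* and *Nefm* it was 17 bases. The 21-base Hdac4-shRNA3 sequence, gcatgaggcacagttgcatga, had 0 exact matches in the transcripts of the 10 genes.

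The exception is an overlap on opposite strands. *Nefl* (ENSMUSG00000022055; chr14:68083863-68089095, plus strand) lies inside the annotated span of *Nefm* (ENSMUSG00000022054; chr14:68082590-68124846, minus strand), through the long transcript Nefm-202. The genes share 1108 exon bases, of 3380 in *Nefl* and 5782 in *Nefm*. The library kit did not keep the strand of the RNA, so reads on those bases cannot be assigned to either gene by strand. The counts of both genes, and the ratios, levels per kb and shares drawn from them, are uncertain to that extent. The transcript Nefm-201 (68119283 to 68124846) does not reach *Nefl*. Smaller overlaps with genes on the opposite strand touch *Synm* (426 and 84 of its 7933 exon bases), *Ina* (456 of 3240) and *Des* (220 of 3754), and their counts are uncertain to that extent.

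**Figure D1:**
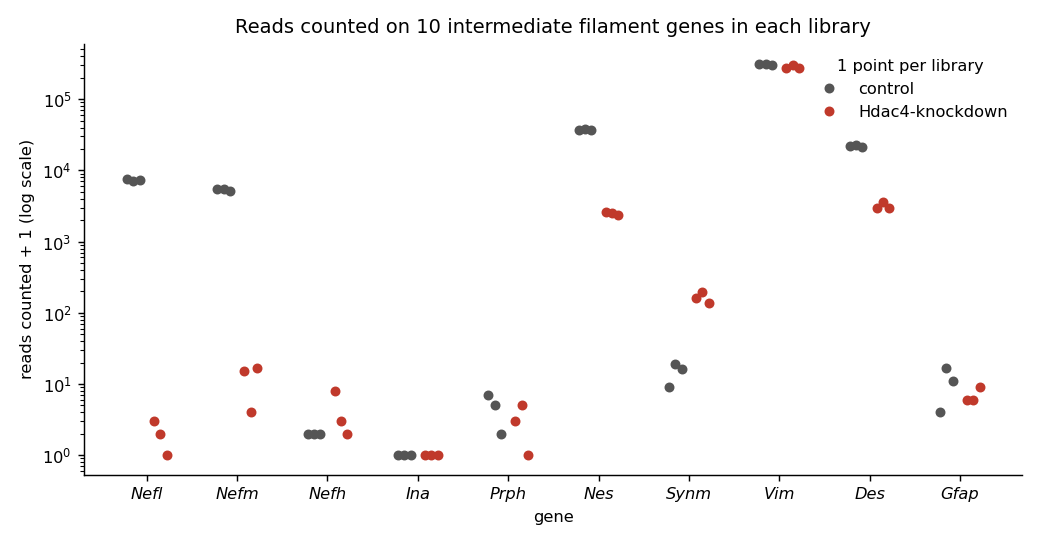
Reads counted on each of the 10 genes in each library, on a logarithmic axis of counts plus 1, with control and Hdac4-knockdown libraries as separate points. *Vim* has 270549 reads or more in every library, *Nefl* has 7175 or more in control and 2 or fewer in knockdown libraries, and *Ina* is at 0 throughout.

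The light and medium neurofilament genes were abundant in control cells and close to absent after knockdown. *Nefl* was counted 7696, 7175 and 7347 times in the control libraries and 2, 1 and 0 times in the Hdac4-knockdown libraries. All control libraries were high and all knockdown libraries lay at the floor of detection. Scaled to library size with TMM factors, *Nefl* was at 250 ± 9.20 normalized counts scaled to library size (CPM; SD, n = 3) in control and 0.0319 ± 0.0323 CPM (SD, n = 3) in knockdown libraries. Over the pooled libraries, 22218 reads stood against 3, a ratio of 7762-fold lower with a 95% counting interval of 2656 to 37641, which covers counting error only. Of the 14531 genes with enough reads to be tested, *Nefl* had the lowest fitted log2 fold change.

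*Nefm* was counted 5464, 5471 and 5208 times in control libraries and 14, 3 and 16 times in knockdown libraries. Every knockdown library was far below every control library, though above those of *Nefl*. The level was 181 ± 2.27 CPM (SD, n = 3) in control and 0.359 ± 0.234 CPM (SD, n = 3) in knockdown libraries, a log2 fold change of -8.99 (SE 0.123). In the control libraries, *Nefl* had 1.41, 1.31 and 1.41 reads for each *Nefm* read, or 2.41, 2.24 and 2.41 per kb of exon. The pair thus kept almost the same proportion from one control library to the next. The size of the ratio per kb depends on the length used. Per kb of the longest coding transcript, *Nefl* was at 73.8 and *Nefm* at 49.3 in control libraries.

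*Nefh*, the heavy chain (ENSMUSG00000020396; chr11:4938754-4948064, minus strand), was not part of this pattern. It was counted once in each control library and 7, 2 and 1 times in the knockdown libraries, too few reads for the fit, and the groups overlapped. Transcripts for the proteins that assemble with neurofilaments were scarce as well. *Ina* (ENSMUSG00000034336; chr19:47014698-47025327, plus strand) had 0 reads in all 6 libraries. *Prph* (ENSMUSG00000023484; chr15:99055174-99058978, plus strand) had 6, 4 and 1 reads in control and 2, 4 and 0 in knockdown libraries, with overlapping groups. The control cells thus held light and medium neurofilament transcripts without the heavy chain, α-internexin or peripherin at levels this depth could measure.

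*Nes* was the second most abundant of the 10 genes in control libraries by reads. *Nes* (ENSMUSG00000004891; chr3:87971078-87980451, plus strand) was counted 37106, 38249 and 37473 times in control libraries and 2572, 2551 and 2379 times in knockdown libraries. Both groups were tight and far from each other. The level was 1268 ± 50.7 CPM (SD, n = 3) in control and 80.4 ± 2.33 CPM (SD, n = 3) in knockdown libraries, which is 6.34% of the control level (log2 fold change -3.98, SE 0.0453). Unlike *Nefl* and *Nefm*, *Nes* thus remained well above the detection floor after knockdown.

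*Synm* went the other way, from a low level. *Synm* (ENSMUSG00000030554; chr7:67730160-67759742, minus strand) was counted 8, 18 and 15 times in control libraries and 158, 196 and 135 times in knockdown libraries. Every knockdown library was above every control library. The level was 0.463 ± 0.178 CPM (SD, n = 3) in control and 5.22 ± 0.804 CPM (SD, n = 3) in knockdown libraries, 11.4-fold higher over pooled libraries, with a log2 fold change of 3.49 (SE 0.247). The control level rests on 41 reads in all, and leaving out control replicate 1 or 2 gave 3.19 and 3.72.

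*Vim*, the main filament gene of these cells, differed little. *Vim* (ENSMUSG00000026728; chr2:13573927-13582826, plus strand) was counted 308473, 317013 and 301914 times in control libraries and 272870, 301497 and 270549 times in knockdown libraries. The knockdown libraries were slightly lower, and the highest of them came close to the lowest control library in reads. After scaling, the level was 10418 ± 287 CPM (SD, n = 3) in control and 9047 ± 274 CPM (SD, n = 3) in knockdown libraries, which is 86.8% of the control level (log2 fold change -0.20, SE 0.0351). The groups did not overlap, and *Vim* alone took 1.02% of all reads counted on genes in control and 0.923% in knockdown libraries. With upper quartile normalization the log2 fold change was -0.11.

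*Des* (ENSMUSG00000026208; chr1:75360329-75368579, plus strand) was counted 21898, 22531 and 21142 times in control libraries and 2920, 3574 and 3013 times in knockdown libraries. The knockdown libraries were all lower, with somewhat more relative spread (coefficient of variation 8.25%) than the control libraries (2.51%). The level was 736 ± 18.5 CPM (SD, n = 3) in control and 102 ± 8.39 CPM (SD, n = 3) in knockdown libraries, 13.8% of the control level (log2 fold change -2.86, SE 0.0516). *Gfap* (ENSMUSG00000020932; chr11:102887336-102900912, minus strand), the astrocyte filament gene, had 3, 16 and 10 reads in control and 5, 5 and 8 in knockdown libraries. Its groups overlapped at this low level, and it had too few reads for the fit.

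**Figure D2:**
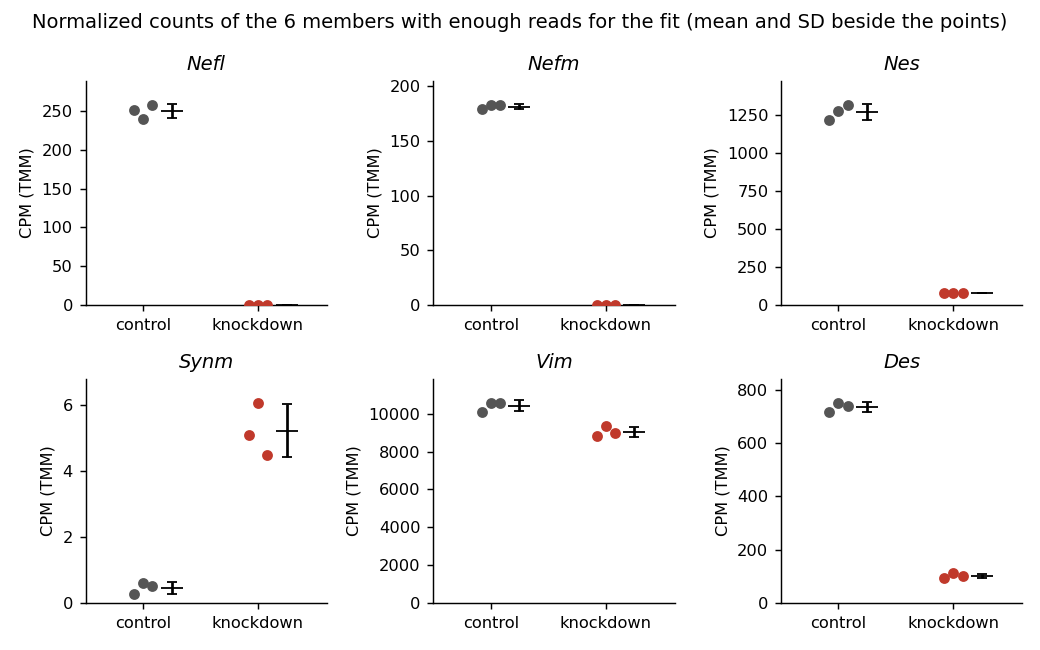
Normalized counts (TMM-scaled CPM, linear axes from 0, one scale per gene) of the 6 genes with enough reads, as 1 point per library with the mean and SD of 3 libraries beside them. *Nefl* and *Nefm* sit at the axis after knockdown, *Nes* and *Des* are lower but above it, *Vim* is at 86.8% of control, and *Synm* is higher.

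Of the 10 genes, 6 had enough reads to be tested, 5 were called lower in knockdown libraries and 1 higher. A call required an adjusted p below 0.05 in edgeR's quasi-likelihood test together with a log2 difference larger than 0.05 either way. Calls were common in this comparison, with 37.1% of the 14531 genes called lower and 38.0% called higher, together 75.1%. The 5 genes called lower were also those whose libraries all lay below control, which held for 38.0% of all genes, and *Synm* was above control in every library, which held for 38.8%. The groups did not overlap for any of the 6 tested filament genes, and for 76.8% of all genes tested. Since the genes were chosen with this comparison in view, nothing is read from these counts. *Nefl*, *Nefm* and *Synm* passed the filter on low counts only through the group in which they were high. By size, *Nefl*, *Nefm* and *Nes* had log2 fold changes below -3, as did 1.78% of all genes tested, and ranked 1, 8 and 140 from the lowest. *Des* ranked 293, and was among the 10.6% of genes called lower with a log2 fold change below -1. *Synm* was above 3, as were 4.88% of all genes.

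Levels of different genes can be compared only per length. In CPM divided by the exon length in kb, *Vim* was at 2197 ± 60.4 (SD, n = 3) in control libraries. *Nes* (198 ± 7.91) and *Des* (196 ± 4.93) followed at the same level within their spread, and their order changed when the length of the longest coding transcript was used. *Nefl* (73.8 ± 2.72) and *Nefm* (31.4 ± 0.393) came next, with their shared exon bases included in both lengths. The other 5 genes were below 0.1. After knockdown the order was *Vim* (1907 ± 57.8), *Des* (27.1 ± 2.23), *Nes* (12.5 ± 0.362), *Synm* (0.658 ± 0.101) and *Nefm* (0.0620 ± 0.0404), with the other 5 below 0.05. Among the last 5 the neighbouring levels overlapped. The place of *Nefm* is not settled either. Its knockdown libraries (0.0782, 0.0161 and 0.0919) overlapped those of *Gfap* (0.0383, 0.0368 and 0.0630).

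Per length, vimentin transcripts were the largest component in control libraries and nearly the only one in knockdown libraries. *Vim* made up 81.5 ± 0.131% (SD, n = 3) of the summed level of the 10 genes in control libraries and 97.9 ± 0.0407% (SD, n = 3) in knockdown libraries. The share of *Nes* was 7.33% in control and 0.644% in knockdown libraries, and that of *Des* 7.28% and 1.39%. *Nefl* and *Nefm* together with these account for the rest in control cells, at 2.74% and 1.16%, and both were below 0.01% after knockdown. These shares depend on the length used, since the union of exons includes retained introns. Per kb of the longest coding transcript, an alternative added after seeing the data, the *Vim* share was 89.2 ± 0.0713% in control and 98.9 ± 0.0255% in knockdown libraries, and in control libraries *Des* was at 4.57%, *Nes* at 3.89%, *Nefl* at 1.39% and *Nefm* at 0.926%. With union exons, the summed level itself was 2696 ± 72.5 in control and 1948 ± 59.8 in knockdown libraries.

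**Figure D3:**
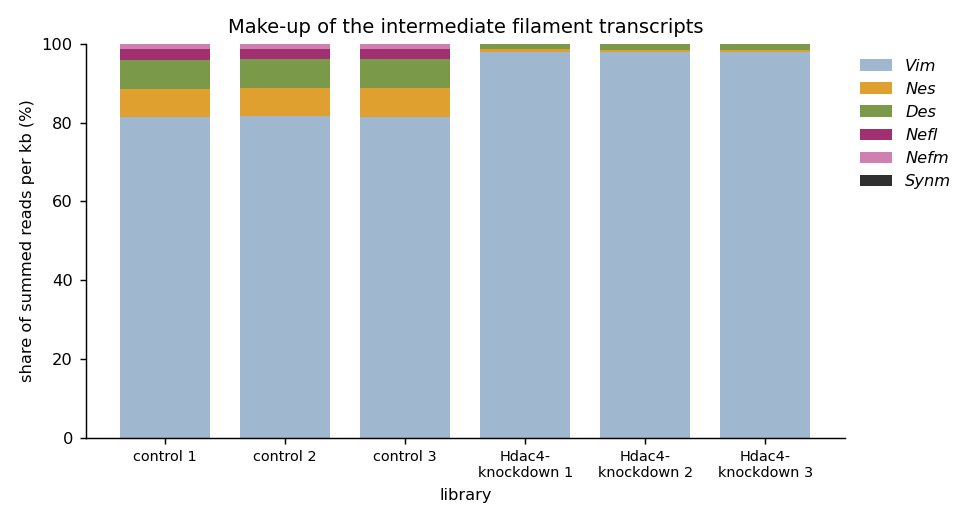
Share of each gene in the summed reads per kb of the 10 intermediate filament genes, as 1 stacked bar per library in percent. The *Vim* share is about 81.5% in each control library and 97.9% in each knockdown library, and the neurofilament and nestin bands are no longer visible or thin after knockdown.

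Other genes that make, link or regulate intermediate filaments were read from the same fit, with p-values adjusted by the Benjamini-Hochberg method over all 14531 genes. The lists were chosen with earlier results of these data known, so the p-values only describe these genes. Of the list genes named, *Krt19*, *Bfsp1*, *Syt1*, *Ngfr*, *Isl1* and *Dlx5* passed the low-count filter only through the group where they were high. They are given without p-values. Some list genes not named here passed in the same way, and they enter the counts and medians below. With at least 10 counts in every library, 40 genes of the lists were called lower and 18 higher, against 44 and 26 in the main fit. Of all genes tested, 37.1% were called lower and 38.0% higher, and their median log2 fold change was 0.01. The counts of each list below, given as fell and rose, stand beside these shares. Of 10 keratin genes, which encode the filaments of epithelia, 5 were tested, 3 fell and 1 rose, with a median of -0.65. *Krt19* fell from 1116, 1185 and 1230 reads to 1, 6 and 5 (log2 fold change -8.23, SE 0.179). *Krt80* fell from 2414, 2241 and 2152 reads to 59, 50 and 51 (-5.47, SE 0.0842, edgeR adjusted p = 4.06e-21). *Krt10* fell less (-0.65, edgeR adjusted p = 0.000461) and *Krt14* rose (0.42, edgeR adjusted p = 0.00447). *Krt7*, *Krt5*, *Krt1* and *Krt20* were not detected, at 3 reads or fewer in every library. The summed keratin level was 125 to 129 CPM in control and 12.1 to 13.6 CPM in knockdown libraries.

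Among lamins, lens filament genes and syncoilin, 5 of 6 were tested. Of these, 3 fell and 2 rose (37.1% and 38.0% of all genes), with a median of -1.11. The B-type lamins of the nuclear envelope fell, *Lmnb1* by 1.25 on the log2 scale (edgeR adjusted p = 4.88e-15) and *Lmnb2* by 1.11 (edgeR adjusted p = 5.97e-15). The A-type lamin gene *Lmna* rose by 0.14 (edgeR adjusted p = 0.00337), a value that was 0.10 to 0.23 under the alternatives. Syncoilin (*Sync*), a muscle protein that binds desmin, fell by 1.70 (edgeR adjusted p = 4.25e-13). *Bfsp1*, a lens filament gene, rose from 5, 13 and 9 reads to 28, 32 and 30 (log2 fold change 1.65).

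Of 17 genes for filament linkers, chaperones and filament turnover, 16 were tested. Among them, 10 fell and 5 rose (37.1% and 38.0% of all genes), with a median of -0.32. *Hspb1*, which encodes the small heat shock protein HSP27, a chaperone of intermediate filaments, fell from 21802, 23383 and 21039 reads to 448, 555 and 547 (log2 fold change -5.48, SE 0.0659, edgeR adjusted p = 1.23e-22). *Fam83h*, whose protein organizes keratin filaments, fell by 1.70 (edgeR adjusted p = 7.81e-12). In the other direction, the ubiquitin ligase gene *Trim2*, which acts on the neurofilament light chain, rose by 1.40 (edgeR adjusted p = 1.95e-14). *Plec*, which encodes the linker plectin, rose by 0.65 (edgeR adjusted p = 4.78e-11). Of the 3 genes whose proteins bind neurofilament mRNA, *Arhgef28* rose from 28, 27 and 13 reads to 220, 256 and 202 (log2 fold change 3.24, SE 0.201, edgeR adjusted p = 1.50e-11), and *Tardbp* fell by 0.41 (edgeR adjusted p = 2.94e-08).

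**Figure D4:**
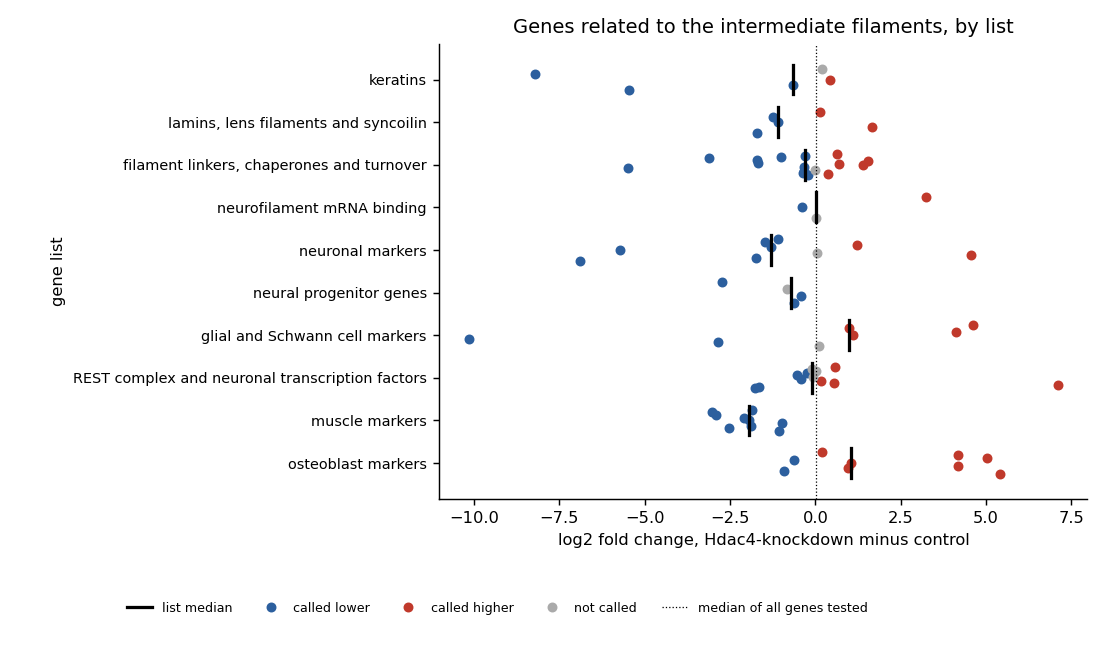
Log2 fold change, Hdac4-knockdown minus control, of every tested gene in 10 lists related to the intermediate filaments, coloured by call, with the list median as a bar and the median of all genes tested (0.01) as a dotted line. The tested muscle markers all lie to the left, 7 of 9 osteoblast markers to the right, the 4 tested neural progenitor genes lie to the left, and the other lists spread to both sides. Values beyond 7 in size rest on at most 1 read per library in one group or, for *Krt19*, on 6 or fewer.

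Markers of cell types that express these filaments were read in the same way, to see what moved beside them. Of 16 neuronal markers, 9 were tested, 6 fell and 2 rose (37.1% and 38.0% of all genes), with a median of -1.30. Their summed level was 466 to 473 CPM in control and 143 to 149 CPM in knockdown libraries. The cell adhesion gene *L1cam* fell from 2353, 2255 and 2190 reads to 21, 25 and 13 (log2 fold change -6.91, SE 0.105, edgeR adjusted p = 3.41e-21). *Gap43*, which encodes a growth cone protein, fell by 5.72 (edgeR adjusted p = 3.12e-19), and *Tubb3*, the neuronal β-tubulin gene, fell by 1.10 (edgeR adjusted p = 9.93e-14). The synaptic vesicle gene *Syt1* rose from 2, 0 and 4 reads to 56, 43 and 57 (log2 fold change 4.55). *Mapt*, which encodes tau, rose by 1.23 (edgeR adjusted p = 0.0019). *Snap25* and *Elavl4* were at 0 in every library, and *Rbfox3*, *Elavl3*, *Dcx* and *Chga* had 3 reads or fewer, so that several genes that define neurons were absent from control cells too. The part of these genes in the neurofilament result was not tested.

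Of 12 neural progenitor genes, 4 were tested, 3 fell and none rose (37.1% and 38.0% of all genes), with a median of -0.72. *Sox2*, a neural stem cell transcription factor, fell from 280, 299 and 237 reads to 32, 58 and 39 (log2 fold change -2.73, SE 0.169, edgeR adjusted p = 1.54e-11). The Notch target *Hes1* fell by 0.63 (edgeR adjusted p = 3.33e-09) and the RNA-binding gene *Msi2* by 0.44 (edgeR adjusted p = 0.000201). The summed level was 157 to 178 CPM in control and 97.2 to 121 CPM in knockdown libraries. Leaving out any 1 control library or knockdown replicate 1 brought in 1 gene that was called higher, and dropping the filter to 1 count brought in 2. *Hes5* was at 0 throughout, and *Sox1*, *Pou3f1*, *Pou3f2* and *Fabp7* had 3 reads or fewer.

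Of 11 glial and Schwann cell markers, 7 were tested. Among these, 2 fell and 4 rose (37.1% and 38.0% of all genes), with a median of 1.00. The neurotrophin receptor gene *Ngfr* fell from 582, 493 and 430 reads to 1, 0 and 0. The neuregulin receptor gene *Erbb3* fell by 2.85 (edgeR adjusted p = 2.86e-13). The glutamate transporter gene *Slc1a3* rose from 19, 24 and 19 reads to 365, 380 and 397 (log2 fold change 4.13, SE 0.158, edgeR adjusted p = 6.29e-15). *Sox10* and *Foxd3*, which define neural crest and Schwann cell precursors, were at 0 in every library, and *Aqp4* had 3 reads or fewer. The summed level was 31.0 to 34.6 CPM in control and 21.8 to 22.5 CPM in knockdown libraries. With at least 10 counts in every library, 1 of these markers was called lower and 2 higher.

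Of 12 muscle markers, 9 were tested and all 9 fell, with a median of -1.94, against 37.1% called lower among all genes. *Myod1*, the myogenic transcription factor gene, fell from 2046, 2152 and 1848 reads to 296, 258 and 280 (log2 fold change -2.92, SE 0.0728, edgeR adjusted p = 7.19e-18). *Myh3*, the embryonic myosin heavy chain gene, fell by 2.52 (edgeR adjusted p = 2.66e-14). The summed muscle level was 544 to 563 CPM in control and 208 to 231 CPM in knockdown libraries. Without control replicate 3, or with the filter at 1 count, 1 muscle marker that the main fit did not test was called higher. *Des* was thus lower beside other muscle genes, whose part in its result was not tested.

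REST is a repressor that keeps neuronal genes silent in cells other than neurons. Of 17 genes for that complex and for neuronal transcription factors, 12 were tested. Among them, 5 fell and 4 rose (37.1% and 38.0% of all genes), with a median of -0.09. *Rest* itself rose from 2112, 2080 and 2133 reads to 3526, 2992 and 3248 (log2 fold change 0.56, SE 0.0621, edgeR adjusted p = 1.10e-07). *Ctdspl*, a phosphatase gene of the complex, rose by 0.54 (edgeR adjusted p = 8.89e-07), and the corepressor gene *Sin3a* fell by 0.55 (edgeR adjusted p = 4.74e-09). The sympathetic neuron factor *Gata3* fell by 1.76 (edgeR adjusted p = 1.48e-07) and the sensory neuron factor *Pou4f1* by 1.64 (edgeR adjusted p = 6.75e-06). *Isl1*, a motor and sensory neuron factor, rose from 0, 1 and 0 reads to 70, 66 and 61. *Neurod1* and *Phox2a* were at 0 in every library, and *Neurog2* had 3 reads or fewer. Whether any of these factors acted on the filament genes was not tested.

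The identity of the cells was read from 12 osteoblast markers, of which 9 were tested. Among these, 2 fell and 7 rose (37.1% and 38.0% of all genes), with a median of 1.04. The master regulator *Runx2* was well counted in every library, at 1954 to 2131 reads in control and 2352 to 2561 in knockdown libraries. The collagen gene *Col1a1* rose from 9852, 10505 and 9695 reads to 334351, 367071 and 326535 (log2 fold change 5.03, SE 0.0446, edgeR adjusted p = 6.19e-24). *Dlx5* rose from 4, 8 and 5 reads to 227, 266 and 282 (5.41, SE 0.24). *Twist1* rose by 4.16 (edgeR adjusted p = 1.15e-17), and *Spp1*, which encodes osteopontin, fell by 0.62 (edgeR adjusted p = 1.82e-12). *Alpl* was near 0 in both groups, at 3 reads or fewer. The late markers *Bglap* and *Ibsp* were low too, with too few reads for the fit. *Bglap* had 0, 1 and 1 reads in control and 3, 12 and 6 in knockdown libraries. *Ibsp* had 0, 0 and 0 in control and 4, 6 and 7 in knockdown libraries. For both, every knockdown library lay above every control library, which held for 38.8% of all genes tested. The summed level was 4646 to 4672 CPM in control and 15152 to 15773 CPM in knockdown libraries. With at least 10 counts in every library, 2 osteoblast markers were called lower and 5 higher. With the filter at 1 count, 9 were called higher.

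The genes around *Nefl* and *Nefm* were read to see whether the difference extended along the chromosome. Within 500 kb of *Nefl*, 15 genes are annotated and 6 were tested, *Nefm* included. Of these 6, 4 were lower, 1 higher and 1 was not called, beside 37.1% and 38.0% of all genes. The 4 include *Nefm*, which was chosen with its difference known, so nothing is read from this count. The nearest tested gene after *Nefm* was *Dock5*, 150 kb from *Nefl*, which rose by 0.16 (edgeR adjusted p = 0.00254). *Gnrh1* had a log2 fold change of 0.31 (edgeR adjusted p = 0.414) and overlapping groups. Farther out, *Kctd9* fell by 0.53 (edgeR adjusted p = 2.92e-08), *Cdca2*, a mitotic gene, by 1.20 (edgeR adjusted p = 1.35e-13), and the low *AC093020.1* by 1.47 (edgeR adjusted p = 2.03e-05). The log2 fold changes of the 5 neighbours other than *Nefm* thus lay between -1.47 and 0.31. All 5 lie on the side of lower coordinates, so the chromosome beyond the other side of the pair was not read.

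**Figure D5:**
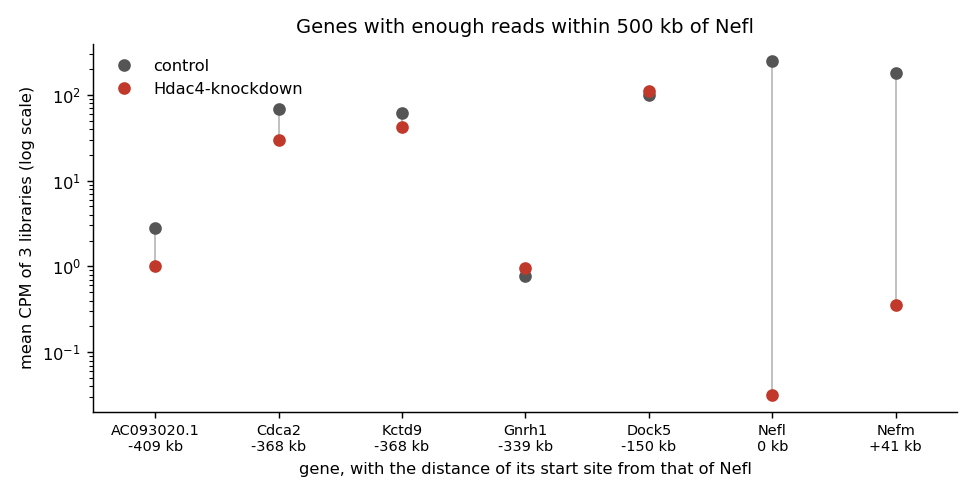
Mean CPM of 3 control and 3 Hdac4-knockdown libraries, on a logarithmic axis, for *Nefl* and the 6 tested genes within 500 kb of it, in the order of their start sites. Only the lines of *Nefl* (250 to 0.0319 CPM) and *Nefm* (181 to 0.359 CPM) span more than 1 decade.

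The genes around *Nes*, *Des*, *Vim* and *Synm* were read in the same way, beside 37.1% of all genes called lower and 38.0% called higher. Within 500 kb of *Nes*, 21 genes were tested, 3 fell, 13 rose and 5 were not called. Around *Des*, 22 were tested, 6 fell, 10 rose and 6 were not called. Around *Vim*, 7 were tested, 3 fell, none rose and 4 were not called, and around *Synm*, 6 were tested, 1 fell, 3 rose and 2 were not called.

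Promoter sequence, from 250 bases before to 50 after each start site, was matched for 7 of the 10 genes in RefSeq on GRCm38.p6. *Nefl*, *Nefm* and *Nefh* were not among the promoters used here. The 120 bases before the start sites of *Nes* and *Des*, both lower after knockdown, and of *Synm*, which was higher, are shown 5′ to 3′ on the coding strand. Capitals mark the GC box (GGGCGG) and the CCAAT box (CCAAT), each searched on both strands.
Nes: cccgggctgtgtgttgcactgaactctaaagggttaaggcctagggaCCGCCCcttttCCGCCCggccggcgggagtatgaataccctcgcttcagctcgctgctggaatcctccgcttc
Des: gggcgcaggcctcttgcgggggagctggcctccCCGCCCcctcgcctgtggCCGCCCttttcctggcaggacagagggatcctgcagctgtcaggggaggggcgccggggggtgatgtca
Synm: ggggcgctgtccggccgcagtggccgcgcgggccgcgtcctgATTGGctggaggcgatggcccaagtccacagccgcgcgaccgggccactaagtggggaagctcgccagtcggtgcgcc

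These windows lie at chr3:87970973-87971092 (*Nes*, plus strand), chr1:75360172-75360291 (*Des*, plus strand) and chr7:67759743-67759862 (*Synm*, minus strand). *Nes* and *Des* each hold 2 GC boxes on the opposite strand, at -73 and -62 and at -87 and -69 from the start site. *Synm* holds 1 CCAAT box, at -78. Of all 32851 promoters in the table, 35.7% hold a GC box and 37.4% a CCAAT box, so both are common. A TATA box (TATAAA) was found in *Vim*, at -32, and *Prph*, at -31, and in 13.6% of all promoters. None of the 7 held the AP-1 site TGANTCA, found in 7.81% of all promoters, or the CArG box, found in 1.63%. These are matches of letters in a window and say nothing of whether a factor binds there.

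The depth was even, with 29096544 to 31651826 reads counted on genes per library. *Hdac4* was counted 1243, 1204 and 1136 times in control and 950, 927 and 887 times in knockdown libraries, a log2 fold change of -0.44 (SE 0.057, edgeR adjusted p = 8.98e-07). *Hdac4* shares 3536 of its 15813 exon bases with a gene on the opposite strand, and its count is uncertain to that extent. Across the fit, 5393 genes were called lower and 5521 higher. Reads outside genes were 3.17% to 3.41% of the reads in control and 4.64% to 5.07% in knockdown libraries, and the part of this difference in the results was not tested.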

How the data were processed

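Poly-A selected RNA was sequenced from 3 control and 3 Hdac4-knockdown samples of MC3T3-E1 cells. The authors deposited unnormalized read counts per Ensembl gene for each library. The submitters' processing notes name FastQC, STAR 2.7.3a and HTSeq 0.12.4 with the mouse build mm10. The annotation release and the strand setting of the counting are not given in the sources used here. Of 53801 identifiers, 53706 were matched to GENCODE M21 (GRCm38). Summary lines for reads outside genes were left out of library sizes.

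The comparison used edgeR 4.0.16 under R 4.3.3, with TMM scaling, filterByExpr, the quasi-likelihood F test and Benjamini-Hochberg adjustment over 14531 genes. A gene was called at an adjusted p below 0.05 with a log2 difference above 0.05 either way. CPM are TMM-scaled, and levels per kb use the union of annotated exons. The counting interval of a ratio is an exact binomial one. Replicates of one group differed by more than sampling noise (chi-square per degree of freedom 3.23 to 8.36). With 3 libraries against 3, a two-sided exact permutation test cannot give a p below 0.1.

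The members and lists were chosen with earlier results of these data known. From each list, all called genes were named where there were 4 or fewer, otherwise the 2 with the largest log2 fold changes in each direction among those averaging at least 100 counts. *Lmnb2*, *Bfsp1*, *Plec*, *Tubb3*, *Mapt*, *Syt1*, *Isl1*, *Pou4f1*, *Twist1*, *Runx2*, *Bglap* and *Ibsp* were named after their values were seen. A few genes of these lists and 1 sequence are not reported here. Alternatives were DESeq2 size factors, upper quartile or library size scaling, a filter of 1 count in all, a filter of 10 counts in each library, limma-voom (limma 3.58.1), DESeq2 1.42.0, a replicate block, other fold change thresholds, and leaving out each library. The share of each gene was also taken per kb of its longest coding transcript, chosen after seeing the data. Promoter sequences came from RefSeq (GRCm38.p6). Figures were drawn with matplotlib 3.10.9.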

Additional observations from a re-analysis of the deposited data

Results flagged for a closer look

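The count tables also give the reads that fell outside annotated genes, which no comparison used. Their share was at least 4.64% in the Hdac4-knockdown libraries and at most 3.41% in the control libraries, so that the groups did not overlap. Groups of 3 libraries were too small for a check of single outlying libraries.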

How the results depend on the processing

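The 705 single-gene comparisons made over 51 of the named genes and the alternatives in which they could be fitted kept the direction and the side of the reported threshold. Requiring at least 10 counts in every library left 3 filament genes called lower and 0 higher, because *Nefl*, *Nefm* and *Synm* were then not tested. With a log2 fold change threshold of 0.5, 2879 genes were called lower and 3579 higher, and with a threshold of 1, 1543 and 2397. At both thresholds 4 filament genes were called lower and 1 higher, with *Vim* no longer called. With any 1 library left out, there were 5165 to 5402 genes called lower, 5370 to 5519 higher, and 5 and 1 filament genes each time. Upper quartile normalization moved the median of all genes from 0.01 to 0.10 and called 6316 genes higher and 4608 lower. The same-numbered libraries did not deviate together (correlations -0.01, 0.03 and 0.02). This cannot show whether they were handled as pairs, which the labels do not say. A replicate block gave 5441 genes called lower and 5523 higher, with 5 and 1 filament genes. Depth limits *Nefh*, *Ina*, *Prph* and *Gfap*, at 16 reads or fewer in every library.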
